A study of Mus musculus with 7 samples.

Results

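The genes described are the receptors through which brain cells sense dopamine, serotonin, adenosine, acetylcholine, noradrenaline and histamine, together with the metabotropic receptors for glutamate and GABA. They were found by gene name: adenosine (Adora), dopamine (Drd), serotonin (Htr), muscarinic acetylcholine (Chrm), adrenergic (Adra and Adrb), histamine (Hrh), metabotropic glutamate (Grm) and GABA-B (Gabbr1 and Gabbr2) receptor genes. This gave 51 of the 49315 genes in the table. The name patterns used no measured value, but the family was put forward with this comparison already known, in which Adora2a, Htr3a and Drd2 stood among the largest falls. Differences between the groups are therefore descriptions, and no p-value is offered as a test of the family.

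RNA was sequenced from oligodendroglia of mouse brain in 2 groups. Control cells carried wild-type Sox9 (genotype Sox9-wt, 3 libraries), and Sox9-tg cells overexpressed this transcription factor (4 libraries). The title of the series places the cells among NG2 glia, the progenitors of oligodendrocytes, soon after birth. The sources used here do not name the promoter or line behind the transgene, the strain, the age in days or the way the cells were isolated. Replicates are called biological, but nothing says that they came from separate animals, so p-values measure only the spread between these samples, which may be technical.

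Nearly all of these receptors cross the membrane several times and act through G proteins. Receptors coupled to Gs raise cyclic AMP, those coupled to Gi/o lower it, and those coupled to Gq release calcium through phospholipase C. The products of Htr3a and Htr3b are the exceptions, subunits of an ion channel. Oligodendrocyte progenitors are known to carry adenosine, muscarinic and metabotropic glutamate receptors, whereas Adora2a and Drd2 are best known from striatal neurons of the indirect pathway and Htr3a from a class of cortical interneurons.

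The libraries held 15768472 to 30507326 gene counts. Levels are given in CPM, the counts of a gene scaled to a common library total, and 3 counts, the limit that a count of 0 allows, corresponded to 0.097 to 0.193 CPM. Such limits cover counting error only. Sox9 itself was at 239 to 353 CPM in control and 2207 to 3597 CPM in Sox9-tg libraries. Each of the 10 NG2 glia markers, Pdgfra and Cspg4 among them, had counts, and their sum was 4147 to 5233 CPM in control and 9973 to 13856 CPM in transgenic libraries. General neuronal markers were present as well, at 3414 to 5317 and 2229 to 4000 CPM. In bulk RNA, fewer cells of a type and less RNA per cell cannot be told apart.

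Of the 51 receptor genes, 33 had enough counts to be tested. A gene is said to have fallen or risen where its adjusted p was under 0.05 by the quasi-likelihood test of edgeR, adjusted by the Benjamini-Hochberg method over all 16616 genes tested. By that mark 14 of the 33 fell in Sox9-tg libraries, against 5.86% of all genes tested. None rose, against 7.69% of all genes: edgeR called 0, with 0 at an unadjusted p under 0.05, and DESeq2 and limma-voom also called 0. All 14 that fell were at least 2-fold lower, a size and call shared by 3.29% of all genes. Their log2 fold changes ran from -3.46 for Adora2a to -1.001 for Grm5. The median log2 fold change, Sox9-tg minus control, was -1.15 over the 33 receptor genes and -0.01 over all genes tested.

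The libraries of the 2 groups did not overlap for 20 of the 33 receptor genes, against 24.5% of all genes. In 19 of them every Sox9-tg library lay below every control library (11.5% of all genes), and in 1, Chrm1, every Sox9-tg library lay above (13.1%). The number that fell was 8 when control replicate 3 or Sox9-tg replicate 4 was left out, 9 when Sox9-tg replicate 3 was left out, and 10 when control replicate 1 or 2 was left out. By coupling class, 3 of 6 tested Gs-coupled, 7 of 19 Gi/o-coupled and 3 of 7 Gq-coupled receptor genes fell, as did the single ion channel gene tested.

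**Figure D1:**
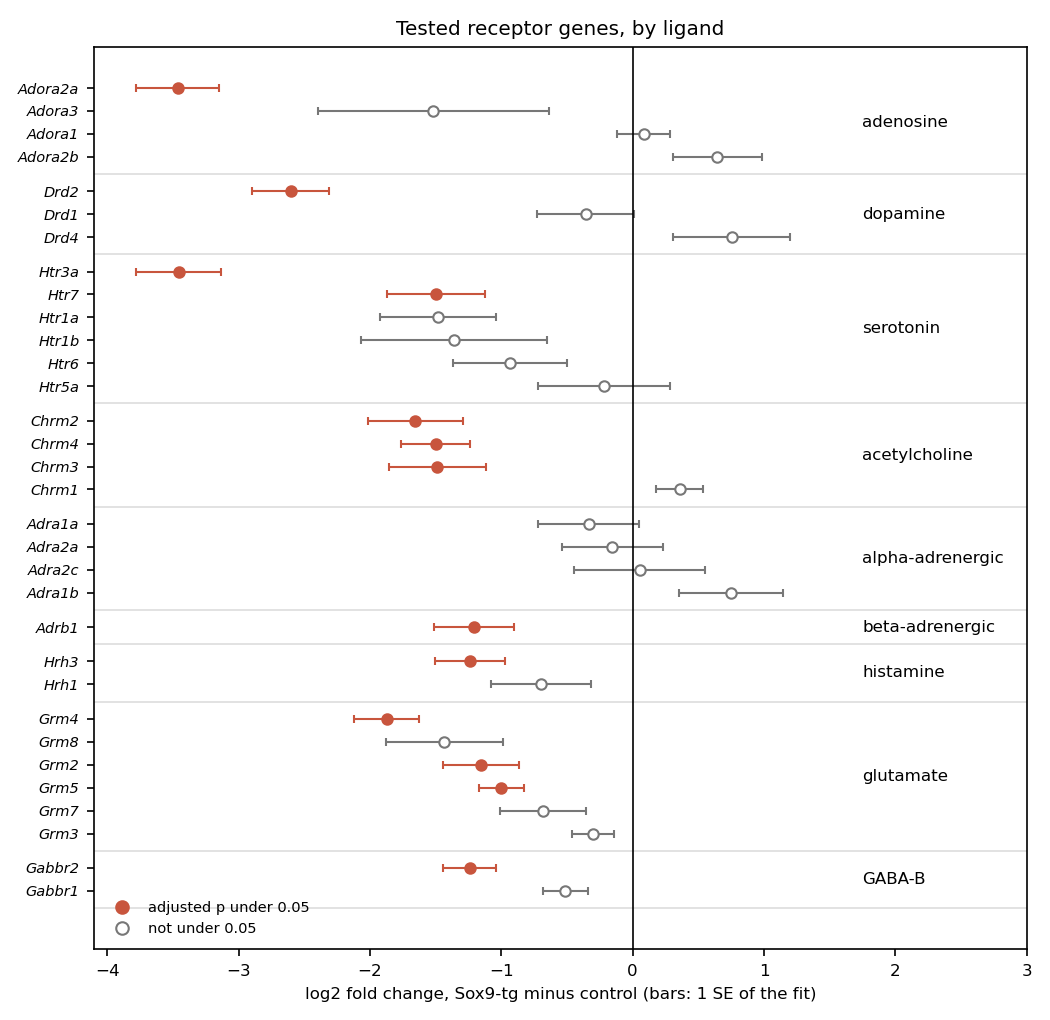
Log2 fold change (Sox9-tg minus control) of 32 of the 33 tested receptor genes, grouped by ligand, with bars of 1 SE from the fit over all genes. The 13 filled points have an adjusted p under 0.05 and lie from -3.46 (Adora2a) to -1.001 (Grm5), and the largest positive value is 0.75 (Drd4).

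Upstream sequence is shown for 3 members, 2 that fell and 1 that did not: Drd2, the gene with the largest fall among members with a RefSeq promoter entry, Adrb1, the only member that fell with a SOX-like motif in its window, and Adora2b, which was not called. RefSeq (GRCm38.p6) gave windows of 250 bases before to 50 after a start for 38 of the 51 members. Among those that fell, Adora2a, Htr3a, Grm4 and Grm5 had no entry. The motifs ACAATG and ACAAAG, which resemble sequences bound by SOX proteins, were searched on both strands. The same 6 bases can match only 1 of them. Either was found in 7 of 50 member windows (14%) and in 28.6% of 32851 windows of all genes. It was found in 1 of 9 windows of members that fell (11.1%) and in 3 of 27 windows of tested members not called (11.1%). Median GC content was 72% in those 9 windows, 61.3% in those 27 and 52.7% over all windows. The 250 bases before the RefSeq start are printed 5′ to 3′, with a motif in capitals, from chr9:49340153-49340402, chr19:56721867-56722116 and chr11:62248734-62248983, all on the plus strand. The RefSeq start of Adora2b is that of the GENCODE gene, whereas those of Drd2 and Adrb1 lie upstream of it, outside the GENCODE gene. Of the 50 member windows, 37 end inside a GENCODE transcript of their gene.
Drd2: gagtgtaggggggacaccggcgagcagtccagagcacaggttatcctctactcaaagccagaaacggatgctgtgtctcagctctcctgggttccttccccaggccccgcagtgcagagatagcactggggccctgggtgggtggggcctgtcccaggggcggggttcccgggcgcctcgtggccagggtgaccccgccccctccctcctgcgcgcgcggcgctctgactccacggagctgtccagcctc
Adrb1: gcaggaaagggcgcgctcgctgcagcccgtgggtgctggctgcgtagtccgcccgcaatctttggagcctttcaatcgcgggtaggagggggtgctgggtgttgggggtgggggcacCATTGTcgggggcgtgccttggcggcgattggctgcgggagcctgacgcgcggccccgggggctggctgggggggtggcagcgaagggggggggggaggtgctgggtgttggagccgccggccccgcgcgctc
Adora2b: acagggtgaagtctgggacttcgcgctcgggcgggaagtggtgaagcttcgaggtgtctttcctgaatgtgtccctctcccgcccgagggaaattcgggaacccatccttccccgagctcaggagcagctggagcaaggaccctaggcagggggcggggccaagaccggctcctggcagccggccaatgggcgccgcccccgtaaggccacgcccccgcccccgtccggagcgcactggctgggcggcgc
The capitals in Adrb1 are ACAATG read on the opposite strand, and neither motif occurs in the other 2 sequences. A match describes letters only, and no binding was measured.

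Adenosine, released by active and damaged cells, acts on 4 receptors. All 4 genes were tested, and 1 fell. Adora2a (ENSMUSG00000020178, chromosome 10, 75316877 to 75334784, plus strand of GRCm38, as are the coordinates that follow) encodes a Gs-coupled receptor that opposes dopamine in the striatum. Control libraries 1 to 3 held 25.7, 16.8 and 13.7 CPM of it, and Sox9-tg libraries 1 to 4 held 2.21, 1.995, 1.55 and 1.02 CPM. The highest transgenic library lay far below the lowest control library. The means were 18.8 ± 6.24 (SD, n = 3) and 1.69 ± 0.523 CPM (SD, n = 4), a log2 fold change of -3.46 (SE 0.32). For the genes that follow, a signed value in parentheses with its SE is this log2 fold change.

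The other Gs-coupled adenosine receptor gene, Adora2b, whose product responds to higher adenosine levels, was at 3.89, 11.6 and 6.92 CPM in control and 9.98, 9.68, 14.2 and 13.2 CPM in transgenic libraries. Control library 2 lay within the transgenic range, the other controls below it, and the gene was not called (0.64, SE 0.34). Without control replicate 2 the log2 fold change was 1.12 and edgeR's adjusted p = 0.046. Adora1, whose Gi/o-coupled product restrains transmitter release, was at 50.6 ± 11.8 and 53.8 ± 10.9 CPM with overlapping libraries. Its exons share 20.1% of their bases with Mybph on the opposite strand, and whether counting used the strand is unknown here. The same limit holds for Hrh3 (11.1%), Grm2 (9.6%) and Chrm2 (2.35%), genes that fell and share exon bases with opposite-strand genes.

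On the TPM scale, which also divides by transcript length, the make-up of the adenosine receptors differed between the groups. Adora2a made up 32.7 ± 12.6% of the summed TPM of the 4 genes in control and 3.57 ± 1.57% in transgenic libraries. Adora2b made up 20.5 ± 7.76% and 39.0 ± 2.79%, and Adora1 45.4 ± 3.99% and 56.7 ± 3.54%. The adenosine sum itself was 58.7 ± 9.75 and 48.7 ± 13.3 TPM, with overlapping libraries. Adora1 held 26.8 ± 5.55 and 27.8 ± 8.19 TPM of it, so its larger share came with a nearly unchanged level. The TPM of Adora2b over that of Adora2a was 0.251 to 1.15 in control libraries and 7.51 to 21.3 in transgenic ones. Adora3, known from microglia and mast cells, was scarce and not called (-1.52, SE 0.88). It was highest in control library 2 (2.70 CPM), next in Sox9-tg library 2 (0.848 CPM) and under 0.5 CPM elsewhere. The 9 microglial markers summed to 750.5 and 321 CPM in those libraries and 55.3 to 225 CPM elsewhere. Their part in the Adora3 values was not tested, nor was that of Tmigd3, which shares 20.9% of Adora3's exon bases on the same strand.

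Dopamine receptors comprise a Gs-coupled pair (Drd1 and Drd5) and a Gi/o-coupled trio (Drd2 to Drd4). Drd2 was the 1 gene that fell among 3 tested (ENSMUSG00000032259, chromosome 9, 49340627 to 49408177, plus strand). Its control libraries held 17.2, 9.69 and 11.8 CPM and its transgenic libraries 1.995, 1.80, 1.61 and 3.03 CPM. The groups were well apart, and Sox9-tg library 4 was the highest of its group. The log2 fold change was -2.60 (SE 0.29). Drd1, the receptor gene of the direct striatal pathway, was at 0.978 ± 0.255 and 0.771 ± 0.183 CPM, and Drd4 at 0.563 ± 0.196 and 0.962 ± 0.362 CPM. Both overlapped between groups and were not called. Drd2 made up 87.6 ± 5.23% of dopamine receptor TPM in control and 54.9 ± 12.4% in transgenic libraries, and the sum over the 5 genes was 17.6 ± 4.12 and 4.39 ± 0.701 TPM.

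Serotonin receptor genes were the most numerous, with 14 members, of which 6 were tested and 2 fell. Htr3a (ENSMUSG00000032269, chromosome 9, 48899213 to 48911099, minus strand) encodes the subunit that serotonin-gated channels require. Its level was 40.9, 25.2 and 40.7 CPM in control and 3.36, 1.496, 4.12 and 4.001 CPM in transgenic libraries. Sox9-tg library 2 was the lowest, and no transgenic library came near the controls. The log2 fold change was -3.46 (SE 0.33). Its partner subunit gene Htr3b had 0 to 2 counts in a control and 0 to 1 in a transgenic library. Htr3a made up 87.1 ± 7.77% of serotonin receptor TPM in control and 51.5 ± 17.1% in transgenic libraries, and the family sum was 59.7 ± 12.1 and 8.78 ± 1.65 TPM.

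Htr7, a Gs-coupled receptor gene (ENSMUSG00000024798, chromosome 19, 35958734 to 36057507, minus strand), was at 1.80, 2.21 and 1.39 CPM in control and 0.473, 0.948, 0.580 and 0.537 CPM in transgenic libraries, a fall with a log2 fold change of -1.49 (SE 0.37). The groups did not overlap, but the counts were few. In edgeR's test the adjusted p was 0.0978, 0.102 and 0.0795 with control replicates 1, 2 and 3 left out in turn, 0.0835 and 0.0873 with Sox9-tg replicates 3 and 4 left out, and 0.0812 with no low-count filter. Htr1a, the autoreceptor gene of serotonin neurons, was at 1.16, 1.07 and 1.13 CPM in control and 0.210, 0.698, 0.386 and 0.293 CPM in transgenic libraries. All 4 transgenic libraries lay below the controls, yet the gene did not pass (-1.48, SE 0.44). Leaving out Sox9-tg replicate 2, the highest of its group, gave -1.90 with an edgeR adjusted p = 0.0229. Htr6, Gs-coupled, was at 0.930 to 1.24 and 0.263 to 0.781 CPM, also without overlap, and was not called (-0.93, SE 0.43). Htr1b and Htr5a stayed under 2 CPM, overlapped and were not called. Among the untested genes, Htr2b had 5, 7 and 6 counts in control and 45, 20, 2 and 3 in transgenic libraries, so its higher values lay in Sox9-tg libraries 1 and 2.

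**Figure D2:**
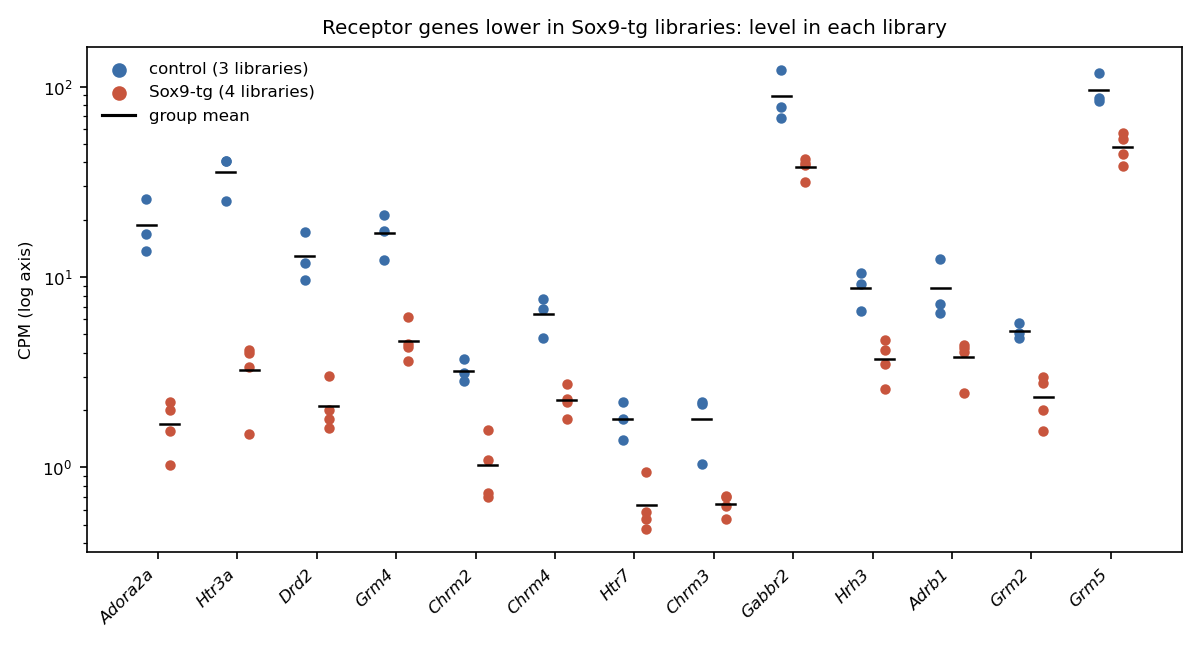
CPM in each library (log axis) of 13 of the 14 receptor genes with an adjusted p under 0.05, ordered by fold change, with control libraries in blue, Sox9-tg libraries in red and group means as black lines. No red point reaches a blue point of the same gene, and for Adora2a the groups lie at 13.7 to 25.7 and 1.02 to 2.21 CPM.

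Of the muscarinic acetylcholine receptor genes, 4 were tested and 3 fell: Gi/o-coupled Chrm2 and Chrm4 and Gq-coupled Chrm3. Chrm4, known from striatal neurons (ENSMUSG00000040495, chromosome 2, 91927249 to 91928688, plus strand), was at 4.77, 7.64 and 6.76 CPM in control and 2.73, 2.19, 1.80 and 2.29 CPM in transgenic libraries (-1.501, SE 0.26). Chrm2, known from heart and cholinergic terminals (ENSMUSG00000045613, chromosome 6, 36388084 to 36528414, plus strand), was at 3.14, 2.83 and 3.72 and 1.58, 0.698, 1.09 and 0.732 CPM (-1.65, SE 0.36). Chrm3, which oligodendrocyte progenitors are known to express (ENSMUSG00000046159, chromosome 13, 9875486 to 10360847, minus strand), was at 1.05, 2.15 and 2.20 and 0.630, 0.698, 0.709 and 0.537 CPM (-1.49, SE 0.37). None of these 3 overlapped between groups.

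Chrm1, Gq-coupled like Chrm3, had the opposite sign. It was at 9.47, 7.54 and 9.28 CPM in control and 12.7, 9.73, 10.1 and 12.4 CPM in transgenic libraries. Each transgenic library exceeded each control library, but the gene was not called (0.36, SE 0.18). Chrm1 made up 20.8 ± 5.62% of muscarinic TPM in control and 47.3 ± 3.32% in transgenic libraries, and Chrm4 65.8 ± 5.33% and 42.6 ± 2.45%. The calls of Chrm2 and Chrm3 were lost in edgeR's test with single libraries left out, in fits that hold fewer libraries. Over all 15 alternatives their log2 fold changes stayed at -1.95 to -1.49 and -1.74 to -1.31. Chrm2 had an adjusted p of 0.0592 and 0.0929 with control replicates 1 and 3 left out, and 0.0515 and 0.06 with Sox9-tg replicates 3 and 4 left out. For Chrm3 it was 0.0981 and 0.163 with control replicates 2 and 3 left out, 0.0563, 0.0718 and 0.0901 with Sox9-tg replicates 2, 3 and 4 left out, and 0.0831 with no low-count filter.

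Adrenergic receptors answer to noradrenaline and adrenaline. Of the Gs-coupled beta receptors, Adrb1 (ENSMUSG00000035283, chromosome 19, 56722199 to 56733113, plus strand) could be tested, and it fell. Control libraries held 6.51, 12.5 and 7.21 CPM and transgenic libraries 2.47, 4.39, 4.25 and 4.05 CPM (-1.21, SE 0.304). The groups did not overlap, and control library 2 was the highest. With control replicates 2 and 3 left out in turn edgeR's adjusted p was 0.0909 and 0.0705, and with Sox9-tg replicates 3 and 4 left out it was 0.0706 and 0.0766.

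Among the alpha receptor genes 4 were tested, and 0 were called by edgeR, DESeq2 or limma-voom, with 0 at an unadjusted p under 0.05 in edgeR. Gq-coupled Adra1b was at 3.75 ± 2.005 and 6.36 ± 1.68 CPM (0.75, SE 0.398) and Adra1a at 4.08 ± 0.492 and 3.24 ± 1.66 CPM. Gi/o-coupled Adra2a was at 5.94 ± 3.36 and 5.36 ± 1.14 CPM and Adra2c at 2.51 ± 0.410 and 2.60 ± 1.61 CPM. All 4 overlapped between the groups.

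Of the histamine receptor genes 2 were tested and 1 fell. Hrh3, a Gi/o-coupled receptor gene of neurons (ENSMUSG00000039059, chromosome 2, 180099465 to 180104488, minus strand), was at 10.5, 6.60 and 9.22 CPM in control and 4.67, 2.59, 4.12 and 3.51 CPM in transgenic libraries (-1.23, SE 0.27). The groups did not overlap. Its adjusted p in edgeR's test was 0.075 and 0.0783 with control replicates 1 and 3 left out and 0.0601 with Sox9-tg replicate 4 left out. Hrh1, Gq-coupled, was at 4.04 ± 1.93 and 2.501 ± 0.544 CPM with overlapping libraries and was not called.

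Metabotropic glutamate receptors tune the release of and response to glutamate, and 4 of 7 tested genes fell, among them Gq-coupled Grm5 and Gi/o-coupled Grm2 and Grm4. Grm4, a presynaptic receptor gene (ENSMUSG00000063239, chromosome 17, 27422387 to 27521403, minus strand), was at 21.2, 12.4 and 17.6 CPM in control and 4.46, 4.29, 3.61 and 6.15 CPM in transgenic libraries (-1.87, SE 0.25). The highest transgenic library stayed below the lowest control library.

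Grm5, known from neurons and immature astrocytes (ENSMUSG00000049583, chromosome 7, 87584168 to 88134907, plus strand), was at 87.1, 117 and 84.3 CPM in control and 56.9, 38.5, 44.1 and 53.1 CPM in transgenic libraries (-1.001, SE 0.17). Grm2 (ENSMUSG00000023192, chromosome 9, 106643095 to 106656082, minus strand) fell from 5.199 ± 0.499 to 2.33 ± 0.670 CPM (-1.15, SE 0.29). Neither overlapped between groups. The Grm2 call was lost in edgeR's test, at adjusted p of 0.0775, 0.0673 and 0.0856 with control replicates 1, 2 and 3 left out and 0.0936 and 0.0838 with Sox9-tg replicates 3 and 4 left out.

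Grm3, the main metabotropic glutamate receptor gene of mature astrocytes, was not called, at 78.0, 123 and 95.2 CPM in control and 72.6, 82.3, 77.4 and 88.9 CPM in transgenic libraries (-0.300, SE 0.16). The TPM of Grm3 over that of Grm5 was 3.01 to 3.80 in control and 4.29 to 7.19 in transgenic libraries, without overlap. Grm8 was at 1.51 to 2.78 and 0.315 to 1.02 CPM (-1.43, SE 0.45) and Grm7 at 2.49 to 4.88 and 1.80 to 2.39 CPM (-0.68, SE 0.33). Both are presynaptic and Gi/o-coupled, and neither was called although their groups did not overlap.

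The GABA-B receptor works as a pair, in which the product of Gabbr1 binds GABA and that of Gabbr2 couples to Gi/o. Gabbr2 (ENSMUSG00000039809, chromosome 4, 46662305 to 46991873, minus strand) was at 68.2, 122 and 77.8 CPM in control and 39.7, 31.6, 41.9 and 38.7 CPM in transgenic libraries, and it fell (-1.24, SE 0.201). Gabbr1 (ENSMUSG00000024462, chromosome 17, 37045966 to 37075067, plus strand) was at 414, 582 and 493 and 381, 273, 354 and 383 CPM. All 4 transgenic libraries lay below the controls, but the gene did not pass in edgeR (-0.51, SE 0.17). DESeq2 gave it an adjusted p = 0.0296. The TPM of Gabbr1 over that of Gabbr2 was 5.23, 4.09 and 5.46 in control and 8.26, 7.46, 7.28 and 8.51 in transgenic libraries, so every transgenic library held more Gabbr1 per Gabbr2 than any control library.

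**Figure D3:**
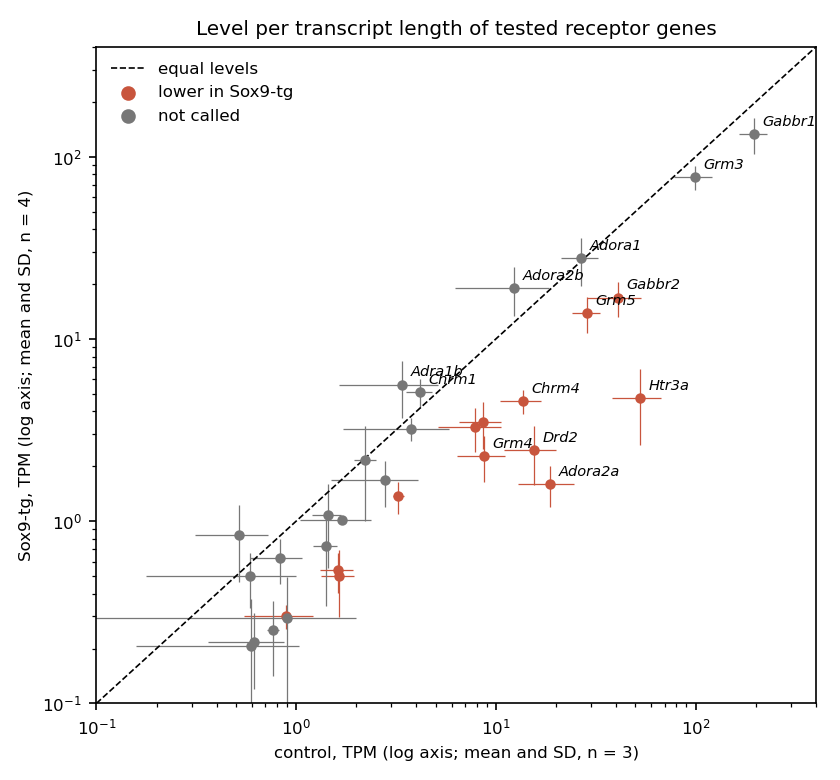
Mean TPM of 32 tested receptor genes in control (horizontal) and Sox9-tg libraries (vertical), both on log axes, with bars of 1 SD over 3 and 4 libraries and a line of equal levels. Gabbr1 and Grm3 lead in both groups, whereas Htr3a goes from 52.6 to 4.71 TPM and Adora2a from 18.7 to 1.60 TPM.

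Ordered by TPM, Gabbr1 (196 ± 31.7) and Grm3 (99.2 ± 21.3) led in control libraries, and the range of each lay above that of the next gene. Htr3a, Gabbr2, Grm5, Adora1, Adora2a, Drd2, Chrm4 and Adora2b followed, from 52.6 down to 12.4 TPM, and neighbours in that order overlapped. In transgenic libraries Gabbr1 (133 ± 29.7 TPM) and Grm3 (77.4 ± 11.7 TPM) again stood first, followed by Adora1 (27.8 ± 8.19 TPM) and Adora2b (19.0 ± 5.70 TPM). Htr3a went from place 3 to place 9, Adora2a from 7 to 18 and Drd2 from 8 to 14 among the 51 genes. Of the 18 untested members, 8 stayed under 10 counts in every library, and none was at 0 throughout.

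The genes just inside the mark were Adrb1 (edgeR adjusted p = 0.0314), Grm2 (0.0312), Htr7 (0.0303) and Chrm3 (0.0302). On the log2 scale they were at -1.21, -1.15, -1.49 and -1.49. Just outside stood Htr1a (0.0587), Grm8 (0.0693) and Gabbr1 (0.0853), at -1.48, -1.43 and -0.51. Of the 14 genes that fell, 8 passed under all 15 alternatives, among them Adora2a, Htr3a, Drd2, Grm4, Chrm4, Gabbr2 and Grm5.

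Htr3a and Drd2 are also neighbours in the genome. Their starts lie 430 kb apart on chromosome 9, and Htr3b lies between them, 53.9 kb from Htr3a. The tested genes between them did not move alike. Usp28, a ubiquitin protease gene, was at 37.0 ± 1.18 and 36.0 ± 5.70 CPM and Zw10, a kinetochore gene, at 38.1 ± 5.76 and 28.1 ± 3.46 CPM, and neither was called. Tmprss5, a serine protease gene whose start lies 259 kb from that of Drd2, rose from 0.814, 1.46 and 1.46 CPM to 15.5, 21.6, 18.0 and 16.4 CPM (3.81, SE 0.26). Beyond Drd2, Ttc12 (-0.55) and the adhesion gene Ncam1 (-0.16) were not called. Cldn25-ps, 1700042D02Rik, Gm4894 and Ankk1 were at or near 0 and not tested. Gm32335, chosen after its values were seen, lies antisense over part of Htr3a. It had 8, 5 and 9 counts in control libraries and 0 in each transgenic library, which allows up to 0.193 CPM there.

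**Figure D4:**
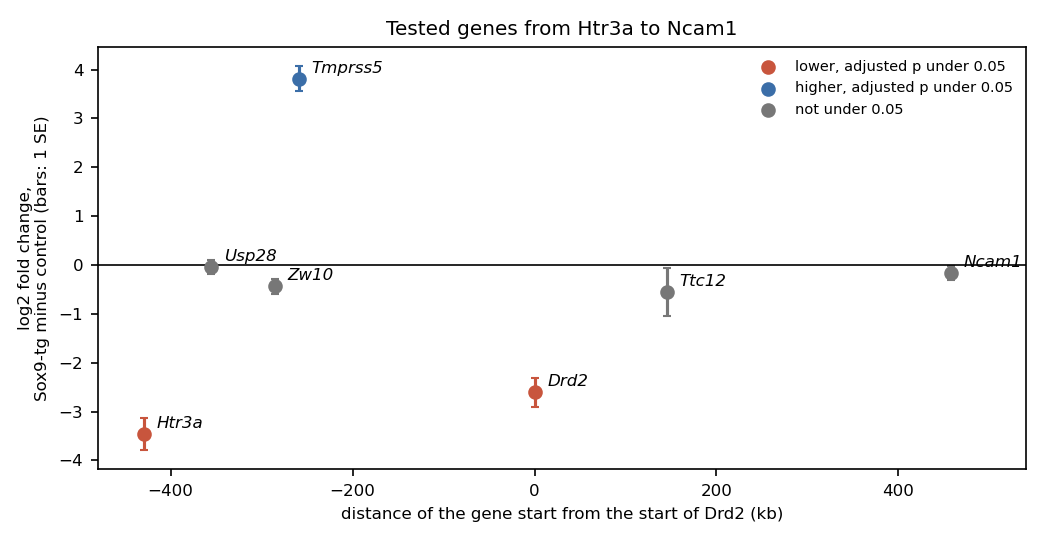
Log2 fold change, with bars of 1 SE, of the tested genes from Htr3a to Ncam1, by the distance of each start from that of Drd2 in kb. Htr3a (-3.46) and Drd2 (-2.60) lie far below 0 and Tmprss5 (3.81) far above it, while Usp28, Zw10, Ttc12 and Ncam1 lie between -0.55 and -0.0385.

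Of 17 tested genes that make or clear the ligands, 4 rose and 1 fell, against 7.69% of all genes called higher and 5.86% called lower. Th, which starts dopamine synthesis, rose from 1.92, 1.27 and 1.13 CPM to 13.2, 3.44, 7.66 and 7.95 CPM (2.498, SE 0.46). No transgenic library overlapped the controls, and edgeR's adjusted p was 0.0505 with control replicate 3 left out. Ddc, which completes dopamine and serotonin and was chosen after its values were seen, was at 2.14 ± 0.283 and 10.4 ± 5.92 CPM (2.29, SE 0.497). Its call was lost with control replicate 1 or 3 left out (edgeR adjusted p of 0.0554 and 0.0803) and in limma-voom (0.0562). Nt5e, the ectoenzyme that forms adenosine outside cells, rose from 3.05 ± 0.623 to 8.40 ± 0.5005 CPM (1.45, SE 0.22), and the cholinesterase gene Bche from 6.53 ± 0.587 to 19.8 ± 7.26 CPM. Gad2, which makes GABA, fell from 183 ± 59.5 to 46.1 ± 24.1 CPM, with an edgeR adjusted p of 0.0544 with control replicate 3 left out.

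For the cyclic AMP branch, the counts stand against 7.69% of all genes called higher and 5.86% called lower. Of 8 tested adenylyl cyclase genes 3 rose and 1 fell. Adcy5, the main cyclase of striatal neurons, rose from 38.0 ± 8.56 to 91.7 ± 4.03 CPM (1.27, SE 0.15) and Adcy6 from 90.0 ± 3.81 to 137 ± 6.63 CPM. Of 15 phosphodiesterase genes, which break down cyclic nucleotides, 3 rose and 1 fell, the latter near the share over all genes. The fall was that of Pde1b, known from the striatum, from 91.4 ± 17.2 to 33.3 ± 4.59 CPM (-1.46, SE 0.16). Of 13 genes for protein kinase A, CREB-family factors, their Crtc coactivators and the kinase A target Ppp1r1b, edgeR called 0, with 2 at an unadjusted p under 0.05, DESeq2 called 1 and limma-voom 0.

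Among 13 G protein alpha subunit genes 3 fell, against 5.86% of all genes: Gnao1 (-0.45), Gna13 (-0.51) and Gna14 (-1.42). Each of these calls was lost in edgeR's test with single libraries left out. With control replicate 3 left out the adjusted p was 0.181, 0.131 and 0.106 in that order, with Sox9-tg replicate 3 left out 0.133, 0.0818 and 0.0598, and with Sox9-tg replicate 4 left out 0.157, 0.0676 and 0.079. Leaving out control replicate 1 also lost Gnao1 and Gna14 (0.144 and 0.119). Leaving out control replicate 2 or Sox9-tg replicate 2 lost Gnao1 (0.105 and 0.0999) and Gna13 (0.0608 and 0.0503). Fewer libraries enter those fits.

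The Gq list held 12 tested genes for phospholipase C, protein kinase C and the IP3 receptors that release calcium, of which 2 rose and 0 fell, against 13.5% of all genes changed either way. Itpr2, an IP3 receptor gene, went from 48.3 ± 5.78 to 295 ± 138 CPM and Prkca from 33.1 ± 2.81 to 63.0 ± 10.9 CPM. Of 7 receptor kinase and arrestin genes 1 rose and 1 fell, against 7.69% and 5.86% of all genes. The fall was that of Grk3, from 80.4 ± 12.5 to 34.7 ± 8.62 CPM (-1.21, SE 0.19), and the rise that of Grk5, lost with control replicate 3 left out (edgeR adjusted p = 0.0624). RGS proteins shorten G protein signals, and 2 of 15 tested genes fell, among them Rgs8 from 86.8 ± 19.5 to 14.3 ± 3.63 CPM (-2.60, SE 0.22). Of 8 scaffold genes of metabotropic glutamate receptors 1 rose, Homer1 (0.504, SE 0.11), with an edgeR adjusted p of 0.0652 and 0.0839 with control replicates 1 and 3 left out and 0.0529 with Sox9-tg replicate 4 left out. The shares of RGS and scaffold genes changed either way were near that over all genes. Both RGS calls were falls and 0 rose, against 5.86% of all genes called lower and 7.69% called higher. The median log2 fold change of the tested RGS genes was -0.34.

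Summed markers of several neuron types were also lower in Sox9-tg libraries. The falls counted among them stand against 5.86% of all genes tested. A sum mostly reflects its most abundant members. The 4 markers of indirect-pathway striatal neurons, which leave out Drd2 and Adora2a, summed to 345 to 656 CPM in control and 106 to 388 CPM in transgenic libraries, which overlapped, with a mean at 50.8% of control. Of these, 3 were tested and 2 fell. Penk, 1 of the 4, was at 4.74 ± 1.25 and 1.28 ± 0.424 CPM (-1.89, SE 0.36), a small part of the summed CPM. The 9 striatal projection neuron markers were at 631 to 1026 and 317 to 504 CPM (47.3%), and 5 fell. Among those, Foxp2 (-1.45, SE 0.33) had overlapping libraries. Gng7 of that list had the opposite sign, at 40.0 ± 12.4 and 48.6 ± 14.8 CPM (0.28, SE 0.26), and was not called. Markers of interneurons from the caudal ganglionic eminence, the class known for Htr3a, were at 393 to 463 and 129.8 to 299 CPM (48.3%), and 2 of 8 tested fell. Lamp5 of that list had the opposite sign, at 0.315 ± 0.0791 and 0.828 ± 0.232 CPM (1.35, SE 0.42), and was not called. Markers of the medial ganglionic eminence, a separate interneuron source, stood lower still, at 138 to 188 and 54.6 to 93.8 CPM (41.1%). Of 5 tested 1, Maf, was called. Lhx8 of that list had the opposite sign, at 2.12 ± 1.29 and 6.21 ± 2.18 CPM (1.57, SE 0.46), and was not called. Direct-pathway striatal markers were at 123 to 147 and 82.5 to 104 CPM (72.8%) without overlap, and 2 of 5 fell. Those were Isl1, from 24.0 ± 15.9 to 4.54 ± 2.41 CPM, and Ebf1, from 16.2 ± 8.59 to 3.97 ± 1.19 CPM. Cortical glutamatergic markers were at 120.0 to 224 and 31.8 to 52.5 CPM (25.3%), and 7 of 8 fell. The 12 general neuronal markers overlapped between the groups, with a mean at 68.3% of control. Every marker in these lists had counts. The median log2 fold change of tested markers was -1.61 for the indirect-pathway, -1.65 for the direct-pathway and -1.22 for the projection neuron list. It was -0.86 for the caudal, -1.06 for the medial, -2.20 for the cortical glutamatergic and -0.60 for the general neuronal list. Over the same libraries Adora2a, Htr3a and Drd2 were 11.03-fold, 10.98-fold and 6.08-fold lower in the fit. The part of these cell types in the receptor values was not tested.

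Other cell types moved too. Astrocyte markers stood at 61.2% of the control mean, neural stem cell markers at 54.3%, NG2 glia markers at 276% and oligodendrocyte markers at 1338%. Control library 2 held the most microglial (750.5 CPM), endothelial (239 CPM) and mural markers (94.7 CPM). Sox9-tg library 2 was the lowest in Htr3a and in the indirect-pathway striatal markers (106 CPM). It was also the lowest in the caudal interneuron (129.8 CPM), general neuronal (2229 CPM) and neural stem cell sums (968 CPM). In oligodendrocyte markers it was the highest (6561 CPM). Adora2a was lowest in Sox9-tg library 4 (1.02 CPM, against 1.995 in library 2) and Drd2 in library 3 (1.61 against 1.80 CPM). Without control replicate 2 the log2 fold changes of Adora2a, Htr3a and Drd2 were -3.54, -3.64 and -2.77, and without Sox9-tg replicate 2 they were -3.54, -3.20 and -2.52.

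**Figure D5:**
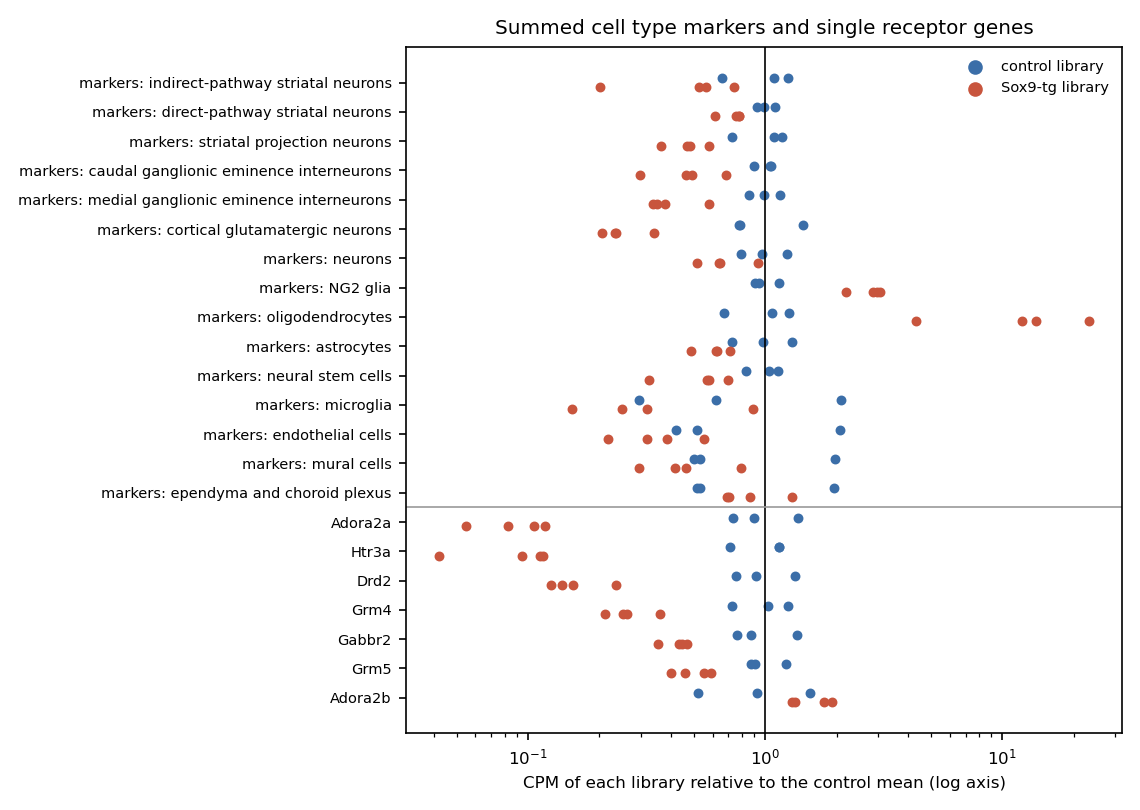
CPM of each library relative to the control mean (log axis) for the summed markers of 15 cell types, above the grey line, and for 7 receptor genes, below it, with control libraries in blue and Sox9-tg libraries in red. Mean neuronal marker sums stand at 25.3% to 72.8% of control, most points of Adora2a, Htr3a and Drd2 lie further left, and NG2 glia markers lie to the right at 276%.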

How the data were processed

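Gene counts of 7 libraries, 3 control and 4 Sox9-tg, were grouped by sample title. The submitters' processing notes list STAR (2.5.2b), Trimmomatic (0.36), featureCounts and Subread (1.5.2), as well as DESeq and DESeq2, and the build GRCm38. The sources used here do not give the settings, strand use or treatment of multiply mapped reads. The authors deposited whole-number counts per gene, not normalized.

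From these counts, genes were kept by filterByExpr of edgeR 4.0.16 (minimum count 10, minimum total 15), scaled by TMM factors (0.965 to 1.05) and compared by its two-sided quasi-likelihood test (R 4.3.3), the model holding group alone. SE is the log2 fold change over the square root of F. TPM used exon lengths of GENCODE M21. The fit was tested on simulated data.

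Members and gene lists were chosen with earlier results of these data known. Members called, separated between groups or at 5 CPM or more are described singly, the others by range and counts. Up to 4 genes of smallest p are named per signalling list. Listed markers missing from the table are not analysed here, and 2 members enter the counts but are not reported singly here. Alternatives were other scalings, DESeq2 1.42.0, limma-voom (limma 3.58.1), other low-count filters, a replicate block and each library left out.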

Additional observations from a re-analysis of the deposited data

Results flagged for a closer look

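Of 33 groups of Sox9-tg libraries tested, 1 held a library far from the others: for Hrh1, a Gq-coupled histamine receptor gene, Sox9-tg library 2 was the lowest at 1.696 CPM, and its gap to the next library was 0.8293 of the group's range. Chance flags about 1 in 20 such groups. The gene was not called, so no result above rests on that library's Hrh1 value.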

How the results depend on the processing

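Over the 15 alternatives, 8 of the 14 receptor genes that fell passed every time, 6 lost the call at least once, and none of the 14 changed sign. The count of falls was 14 with RLE or upper-quartile factors, 15 with total counts, limma-voom or a filter of 1 CPM in 3 libraries, 16 with DESeq2 and 12 with no low-count filter. It ranged from 8 to 14 with 1 library left out, while the count of rises ranged from 0 to 1 (Adora2b, without control replicate 2) and the count of all genes changed from 965 to 3169, against 2251. Fewer libraries enter those fits. The median log2 fold change of tested receptor genes, -1.15, was -1.07 in limma-voom, -0.91 with no filter, which adds low-count members, and -1.12 to -0.81 with 1 library left out. Not called members that gained a call were Adora2b, Gabbr1, Grm8 (DESeq2 adjusted p = 0.0386) and Htr1a. Changes of sign occurred only among genes not called: Adra2c was -0.00601 with total counts and -0.15 in limma-voom, and with 1 library left out the ranges were -0.00994 to 0.301 for Adora1, -0.48 to 0.34 for Adra2a, -0.39 to 0.35 for Adra2c, -0.54 to 0.59 for Htr5a, -0.85 to 0.0838 for Ttc12 and -0.15 to 0.0527 for Usp28. The cause was not tested. Libraries with the same replicate number correlated at 0.317, 0.613 and 0.0703 in their deviations from the group means. The same number was the best match for control libraries 1 and 2, but control library 3 correlated best with Sox9-tg library 1 (0.14). Whether the numbers pair the samples could not be settled from these values. With the replicate block, in which Sox9-tg library 4 has no partner and so adds nothing to the comparison, 14 receptor genes were lower, the median was -1.05, Adra2c was -0.0858 and Htr5a 0.0529. Under that block Chrm3 was lost (edgeR adjusted p = 0.068) and Grm8 gained (0.0375), and all genes changed numbered 3109. Genes under about 1 CPM rest on few counts, which limits what could be detected.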
